A study of Mus musculus with 12 samples.

Results

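The cytosolic ribosomal protein genes code for the proteins of the ribosome outside mitochondria. They were chosen by gene symbol alone (Rpl or Rps followed by a number, the stalk genes Rplp0 to Rplp2, and Rpsa), with no pseudogenes and no use of measured values. The rule found 77 genes in each of 3 tables of raw counts, which held 55359 genes for untreated, 56691 for stimulated and 55401 for additional wild-type cells. Of the 77, 46 belong to the large and 31 to the small subunit.

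Poly(A)-selected libraries were made from B cells of mouse spleen, obtained by taking out CD43-bearing cells with magnetic beads. The study's stated question is the role of the nuclear RNA-binding proteins hnRNP A1 and hnRNP A2B1 in B cells that form germinal centres. Untreated cells gave 3 wild-type (WT) libraries and 3 libraries from double-knockout (DKO) mice, in which Cre-loxP recombination deletes Hnrnpa1 and Hnrnpa2b1. Stimulated cells gave 2 WT and 2 DKO libraries after 48 h of culture with anti-IgM (10 µg/mL) and anti-CD40 (1 µg/mL), which mimic antigen and the help of T cells. A further 2 untreated WT libraries, titled as additional, stand in a table of their own. In the stimulated table the columns carry WT numbers 1 and 3 while the titles have 1 and 2, so the second is called the unnumbered WT library. The labels used here name no promoter driving Cre and no age, and do not say whether replicates were separate mice. The p-values therefore reflect the spread among these libraries alone, which may be technical. In untreated cells WT library 2 and DKO library 1 read as female from Xist and Ddx3y and the others as male. The untreated libraries of a genotype therefore did not all come from the same mouse. Whether libraries of the same sex did is not known.

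A ribosome holds a copy of nearly every ribosomal protein, and cells keep their messages in proportion. These messages start with a run of pyrimidines, the terminal oligopyrimidine (TOP) motif, through which mTOR and LARP1 set their translation and stability. Resting B cells hold few ribosomes, and B cells that are activated build many before they divide. Nearly all ribosomal protein genes have processed pseudogenes, intron-free copies elsewhere in the genome whose reads can be hard to tell from those of the gene.

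Each library held 15090953 to 21731893 counts. Hnrnpa1 lay at 718 to 741 CPM (a gene's counts over the library's total, scaled to equal totals) in untreated WT and 76.7 to 199 in untreated DKO libraries, and at 1728 to 1738 and 238 to 252 in stimulated WT and DKO libraries. Hnrnpa2b1 lay at 1782 to 2020 and 335 to 619 in untreated cells, and at 1824 to 1842 and 330 to 420 in stimulated cells. All 8 B cell markers looked for had counts, and their summed CPM was lower in DKO cells: 4437 to 4882 against 5833 to 6844 untreated, and 6983 to 7539 against 9284 to 9856 stimulated. Stromal or endothelial markers (4 or 5 of 6 with counts in a library) were lower in DKO libraries too, at 26.0 to 34.9 against 54.6 to 76.3 CPM untreated and 48.1 to 55.2 against 109 to 123 stimulated, and Col1a1 or Col1a2 was at 0 in 9 of the 10 libraries. Dendritic cell markers (5 or 6 of 6) summed to 72.8 to 78.0 in DKO and 58.5 to 80.3 in WT untreated, and to 68.4 to 68.7 and 40.5 to 48.8 stimulated. T cell markers (5 to 8 of 8) summed to 46.4 to 80.4 in DKO and 76.3 to 101 in WT untreated, and to 130 to 169 and 163 to 179 stimulated. Macrophage markers (5 to 8 of 8, Fcgr1 at 0 in 6 libraries) summed to 37.3 to 65.5 in DKO and 65.9 to 72.6 in WT untreated, and to 54.7 to 55.7 and 65.7 to 77.3 stimulated. Plasma cell markers (5 or 6 of 6) summed to 662 to 742 in DKO and 661 to 786 in WT untreated libraries. In stimulated libraries they summed to 517 to 579 in DKO and 484 to 533 in WT. Of 5 tested plasma cell markers 0 rose and 2 fell untreated, where 10.6% of all tested genes fell. In stimulated cells 0 rose and 1 fell, against 6.17%. Erythroid markers stayed at or under 32.1, and NK cell, neutrophil and platelet markers at or under 4.90. The part of these cell markers in the results on ribosomal protein genes was not tested.

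To show what such a start looks like, windows from 40 bases before to 15 bases after the annotated start are printed for genes described below, from RefSeq on GRCm38.p6. Capitals mark the run of C and T at the start, counted from its first C, and the first transcribed base is base 41 of the line. The windows lie at chr11:114668540-114668594 (Rpl38), chr7:141447611-141447665 (Rplp2), chr2:180257339-180257393 (Rps21) and chr9:120571477-120571531 (Rpl14), all on the plus strand.
Rpl38: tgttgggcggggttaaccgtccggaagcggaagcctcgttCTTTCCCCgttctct
Rplp2: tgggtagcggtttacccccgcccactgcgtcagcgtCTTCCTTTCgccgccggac
Rps21: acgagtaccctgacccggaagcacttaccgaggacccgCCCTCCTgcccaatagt
Rpl14: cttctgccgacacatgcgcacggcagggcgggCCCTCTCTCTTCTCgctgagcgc
Counted from its first C, the run begins exactly at the annotated first base in Rpl38 and a few bases before it in the others. In Rpl38 and Rplp2 T letters stand directly before that C.

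A start window was held for 57 of the 77 genes, as 67 windows of 300 bases (250 before to 50 after the start). The first transcribed base was a C followed by at least 4 letters that are each C or T in 19.4% of these windows, against 2.51% of the 32851 windows of all 27025 genes in the table. Such a run beginning within 10 bases of the start on the transcribed strand was found in 53.7% against 30.7%. In the 300 bases and on both strands, CCGGAAG, letters that ETS factors bind, was present in 37.3% against 8.86%, and CCATNTT, letters of YY1 sites, in 34.3% against 16.1%. GGGCGG, a GC box, was present in 61.2% against 35.7%, CACGTG, an E-box, in 11.9% against 7.15%, and TATAAA in 8.96% against 13.6%. The median GC content was 58.3% against 52.7%. These matches describe letters, not bound sites.

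Ribosomal protein messages took a larger share of all counts in DKO than in WT cells in both tables. In untreated cells the 77 genes held 6.43%, 6.07% and 6.13% of counts in WT libraries 1 to 3 and 7.84%, 8.45% and 7.83% in DKO libraries 1 to 3. Every DKO library lay above every WT library, with means of 6.21% ± 0.193 (SD, n = 3) and 8.04% ± 0.357 (SD, n = 3), a ratio of 1.29. In stimulated cells the shares were 6.51% in WT library 1, 6.80% in the unnumbered WT library, 11.8% in DKO library 1 and 8.79% in DKO library 2. The means were 6.66% ± 0.209 (SD, n = 2) and 10.3% ± 2.10 (SD, n = 2), a ratio of 1.54, again without overlap. The exact two-sided permutation test gave p = 0.1 for untreated and p = 0.333 for stimulated cells, which are the smallest values that 3 against 3 and 2 against 2 libraries allow. The additional WT libraries held 7.41% and 7.61%.

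Both subunits shared in this difference. Large subunit genes went from 3.25% to 4.27% of counts in untreated and from 3.75% to 5.77% in stimulated cells, and small subunit genes from 2.97% to 3.77% and from 2.91% to 4.50% (means of WT and DKO libraries). Counted per length (TPM, counts over the deposited exonic length, scaled to the same sum in each library), the 77 genes made up 11.3% and 14.0% of the untreated and 12.7% and 17.6% of the stimulated WT and DKO totals. The share of mitochondrial genome transcripts moved the same way, from 2.08% to 2.31% untreated and from 3.38% to 4.21% stimulated. The part of this in the result was not tested. In bulk RNA a change in the mix of cells and a change within each cell cannot be told apart.

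**Figure D1:**
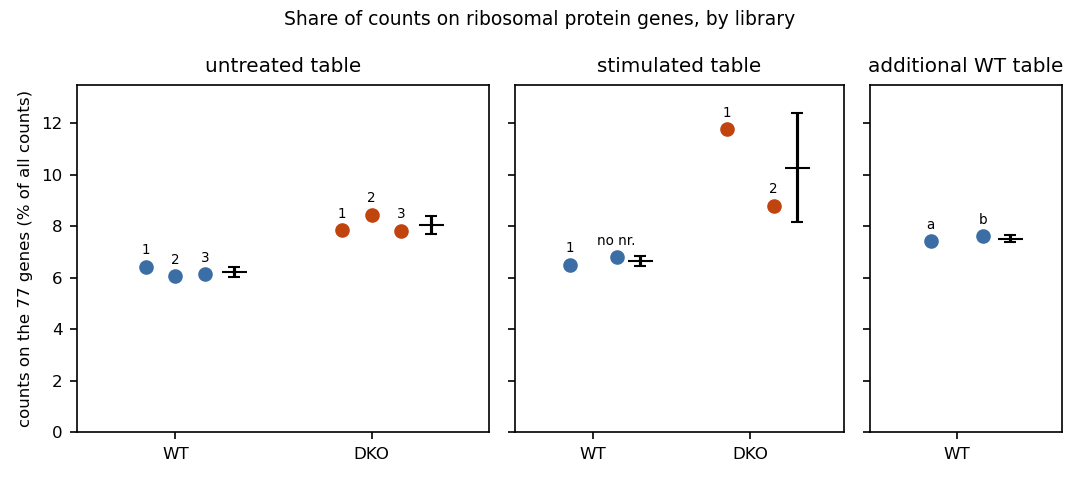
Percent of all gene counts that fell on the 77 ribosomal protein genes (y axis) in each library (points, with the library's number or letter), for the 3 tables, which are not compared with each other. Black marks are the group mean ± SD. All DKO points lie above all WT points of their table, and stimulated DKO library 1 at 11.8% stands above DKO library 2 at 8.79%.

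In untreated cells 61 of the 77 genes rose in DKO and 0 fell (edgeR quasi-likelihood test, Benjamini-Hochberg adjusted p under 0.05 over 13561 genes). Over all tested genes 8.81% were called higher and 10.6% lower (1195 and 1443 genes; 782 and 1970 with plain library totals in place of TMM scaling, which corrects totals for composition). The count of 0 that fell also held at an unadjusted p under 0.05 and with DESeq2, and 65 genes were higher at an unadjusted p under 0.05. The median log2 fold change was 0.44 (1.35-fold), against -0.01 over all tested genes, and 75 of the 77 values were above 0, as were 49.2% of all. In 64 genes every DKO library lay above every WT library, against 13.6% of all tested genes, and in 0 genes below, against 25.8%. Of the large subunit genes 35 of 46 rose, with a median of 0.45, and of the small subunit genes 26 of 31, with a median of 0.41.

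In stimulated cells 32 of the 77 genes rose and 0 fell, at an unadjusted p under 0.05 and with DESeq2 likewise 0 (14430 genes tested, 5.09% called higher and 6.17% lower). With plain totals 7 of the 77 rose (3.06% of all genes), with a median of 0.64, and the median of all genes moved from -0.03 to -0.13. All 77 were higher at an unadjusted p under 0.05, 72 had an adjusted p under 0.1, and the highest adjusted p was 0.137. Every DKO library lay above every WT library in 77 of 77 genes, against 24.4% of all tested genes, and below in 0, against 38.3%. The median log2 fold change was 0.74 (1.68-fold), against -0.03 over all tested genes, and the range ran from 0.51 to 1.09. Large subunit genes had 18 of 46 called and a median of 0.74, and small subunit genes 14 of 31 and 0.75.

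The number called in stimulated cells rests on single libraries. It was 0 without WT library 1 (41 genes at an unadjusted p under 0.05) and 0 without the unnumbered WT library (48 genes). It was 74 without DKO library 1 and 77 without DKO library 2, where 10.8% and 19.8% of all genes were called higher, against 1.9% and 1.6% without the WT libraries. DESeq2 called 75, and 6.87% of all genes. The median stayed between 0.47 (without DKO library 1) and 1.01 (without DKO library 2), and all 77 values stayed above 0 in each of these fits. Fits with 1 library in a group take that library to vary as the other group does.

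**Figure D2:**
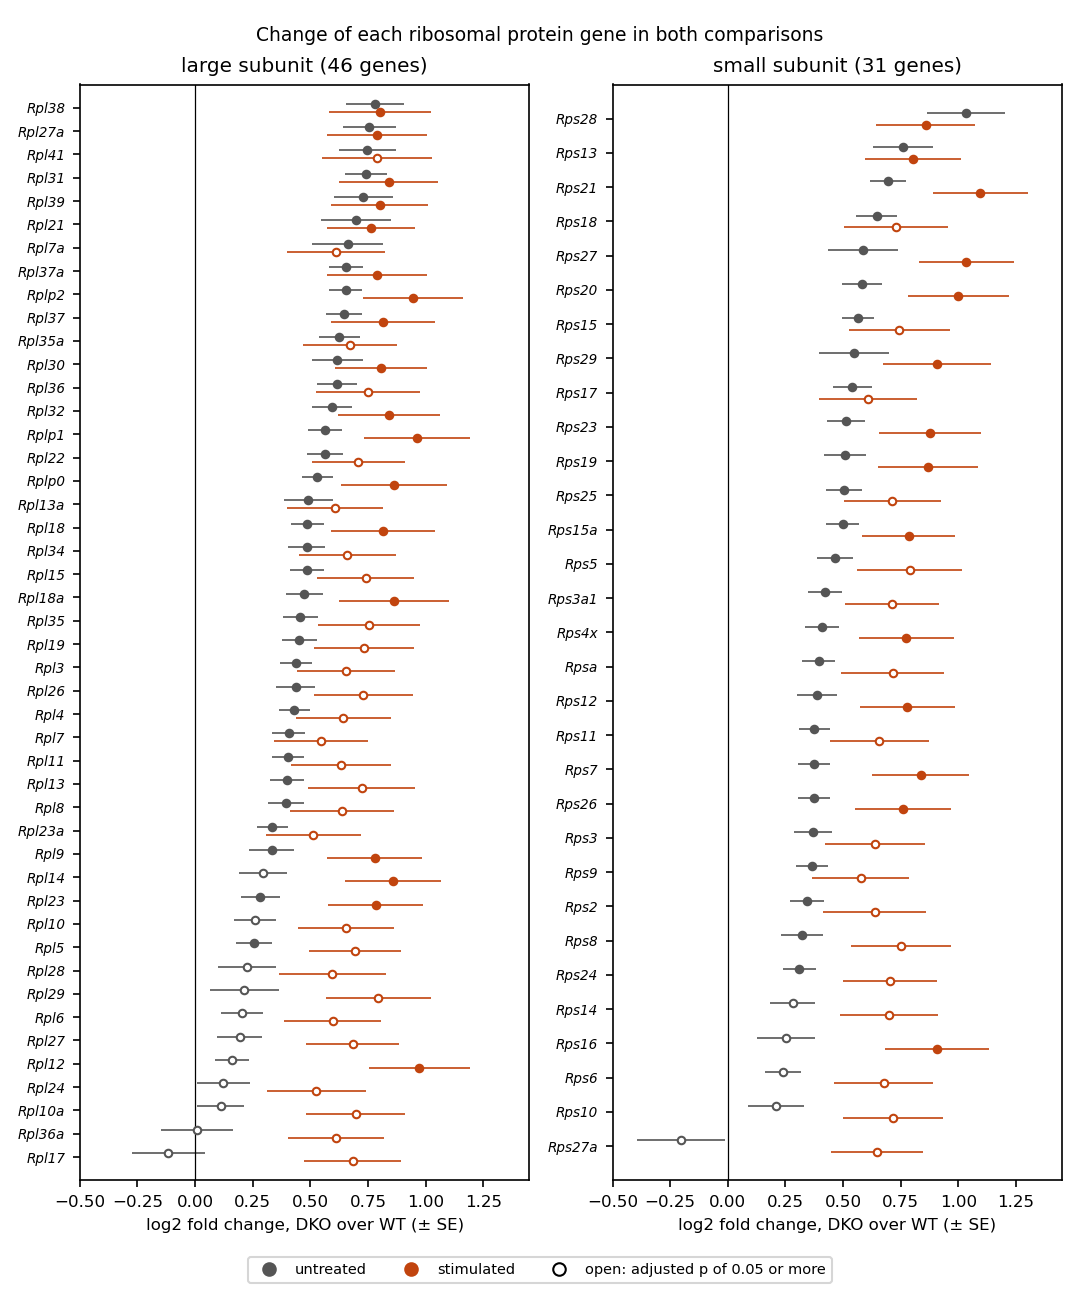
Log2 fold change of DKO over WT with its standard error (x axis) for each of the 77 genes (y axis, ordered by the untreated change), untreated in grey and stimulated in orange; open points have an adjusted p of 0.05 or more. Untreated values run from -0.20 to 1.03, and stimulated values, with longer error bars, all lie between 0.51 and 1.09.

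The stalk, which recruits elongation factors to the ribosome, is built from Rplp0, Rplp1 and Rplp2. Rplp1 had the highest TPM of the 77 genes in untreated WT cells, 7222 ± 144 (SD, n = 3) against 9563 ± 353 (SD, n = 3) in DKO. In CPM, Rplp2 read 687, 702 and 681 in untreated WT and 963, 1097 and 1035 in untreated DKO libraries. It read 289 and 311 in stimulated WT and 629 and 447 in stimulated DKO libraries. No DKO library overlapped with a WT library of its table. Rplp2 rose by 0.65 ± 0.07 (SE) on the log2 scale in untreated cells (edgeR adjusted p = 0.00174) and by 0.95 ± 0.22 in stimulated cells (adjusted p = 0.0283). Rplp0, the scaffold of the stalk, rose by 0.53 ± 0.07 and 0.86 ± 0.23, and Rplp1 by 0.57 ± 0.07 and 0.96 ± 0.23.

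Other large subunit genes at the top of the untreated order were Rpl38, Rpl27a, Rpl41, Rpl31, Rpl39 and Rpl21, at log2 changes of 0.70 to 0.78, of which Rpl27a, Rpl31 and Rpl21 lay at 0.43 to 0.49 when summed with their copies (described below). Rpl38, whose loss in mice alters the translation of Hox messages, read 97.8, 129 and 96.3 CPM in untreated WT and 176, 192 and 160 in DKO libraries. In stimulated cells it read 94.4 and 106 CPM in WT and 194 and 131 in DKO libraries. DKO libraries were higher in both tables, by 0.78 ± 0.13 (edgeR adjusted p = 0.00542) and 0.80 ± 0.22 (adjusted p = 0.0479). Rpl41, a very short protein and 1 of 5 genes for which no processed copy was found, read 562, 725 and 554 CPM in untreated WT and 912, 1100 and 926 in DKO libraries. It rose by 0.75 ± 0.12 (edgeR adjusted p = 0.00577), and in stimulated cells its 0.79 ± 0.24 had an adjusted p of 0.0635.

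Rpl5 and Rpl11 bind the 5S RNA and, when ribosome assembly stalls, hold back MDM2, the brake on p53. Rpl5 read 70.6, 72.5 and 71.0 CPM in untreated WT and 83.9, 84.1 and 74.97 in DKO libraries, a rise of 0.26 ± 0.08 (edgeR adjusted p = 0.0471). In untreated WT cells under 50% of the counts of Rpl5 and its copies (described below) lay on the gene. Summed with its copies, Rpl5 rose by 0.36 ± 0.07 in untreated cells (edgeR adjusted p = 0.0112). In stimulated cells Rpl5 alone read 1527 and 1569 CPM in WT and 2555 and 2119 in DKO libraries, 0.69 ± 0.20 (adjusted p = 0.0561). Rpl11 was higher by 0.41 ± 0.07 (adjusted p = 0.0065) and 0.63 ± 0.21 (adjusted p = 0.0864). Rpl22, whose loss impairs lymphocyte development, was higher by 0.56 ± 0.08 (edgeR adjusted p = 0.00319) and 0.71 ± 0.20 (adjusted p = 0.0529). All 3 passed the threshold in untreated cells and none in stimulated cells.

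In the small subunit Rps28, of the messenger exit region, had the highest untreated change of the 77 when genes were counted without their copies. The gene lies at chr17:34038001-34043536 (GRCm39, minus strand). It read 29.5, 44.6 and 29.0 CPM in untreated WT and 63.5, 74.7 and 62.0 in DKO libraries, so WT library 2 was the highest of WT and still below every DKO library. It rose by 1.03 ± 0.17 (edgeR adjusted p = 0.00554). In stimulated cells it read 115 and 132 CPM in WT and 244 and 173 in DKO libraries, a rise of 0.86 ± 0.21 (adjusted p = 0.037).

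Rps21, a small protein of the 40S particle, had the highest change in stimulated cells. It read 153 and 161 CPM in WT and 360 and 266 in DKO libraries, a rise of 1.09 ± 0.21 (edgeR adjusted p = 0.0151), the smallest adjusted p of the 77 there. In untreated cells it read 289, 284 and 286 CPM in WT and 404, 481 and 438 in DKO libraries, 0.69 ± 0.08 (adjusted p = 0.00174). Within the small subunit Rps27, Rps20, Rps29 and Rps16 followed in stimulated cells, at 1.04, 1.00, 0.91 and 0.91, all past the threshold.

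Rps19, the gene most often mutated in Diamond-Blackfan anaemia, rose by 0.51 ± 0.09 in untreated cells (edgeR adjusted p = 0.00764) and by 0.87 ± 0.22 in stimulated cells (adjusted p = 0.0367). Rpsa, which also serves as a laminin receptor, read 3006, 2695 and 2872 CPM in untreated WT and 3519, 3654 and 3537 in DKO libraries, a rise of 0.39 ± 0.07 (edgeR adjusted p = 0.00782). In stimulated cells it was 0.72 ± 0.22 (adjusted p = 0.0691). Both genes lay higher in every DKO than in every WT library of both tables.

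At the other end of the untreated order, 16 genes missed the threshold, with adjusted p-values of 0.0624 to 0.974. Rps27a, made as a fusion of ubiquitin with a small subunit protein, read 81.5, 56.5 and 74.9 CPM in WT and 59.5, 73.2 and 43.0 in DKO libraries, -0.20 ± 0.19 (edgeR adjusted p = 0.493). Rpl17, at the peptide exit, read 89.4, 57.7 and 88.3 CPM in WT and 69.1, 62.4 and 75.4 in DKO libraries, -0.12 ± 0.16 (adjusted p = 0.641). Rpl36a read 85.8, 55.4 and 87.4 CPM in WT and 69.0, 74.7 and 74.9 in DKO libraries, 0.01 ± 0.15 (adjusted p = 0.974). The groups overlapped in all 3 genes, and WT library 2 was the lowest WT library in each.

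WT library 2 lay below WT libraries 1 and 3 in 15 of the 16 genes, and in 43 of all 77. In the same table this library and DKO library 1 read as female from Xist and Ddx3y and the other 4 as male, and with a term for sex 68 of the 77 genes rose (14.7% of all genes). Without both of these libraries 62 rose (11.5% of all genes). In stimulated cells the values of Rps27a, Rpl17 and Rpl36a were 0.65 ± 0.20, 0.68 ± 0.21 and 0.61 ± 0.21, with edgeR adjusted p-values of 0.068, 0.0666 and 0.0867.

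**Figure D3:**
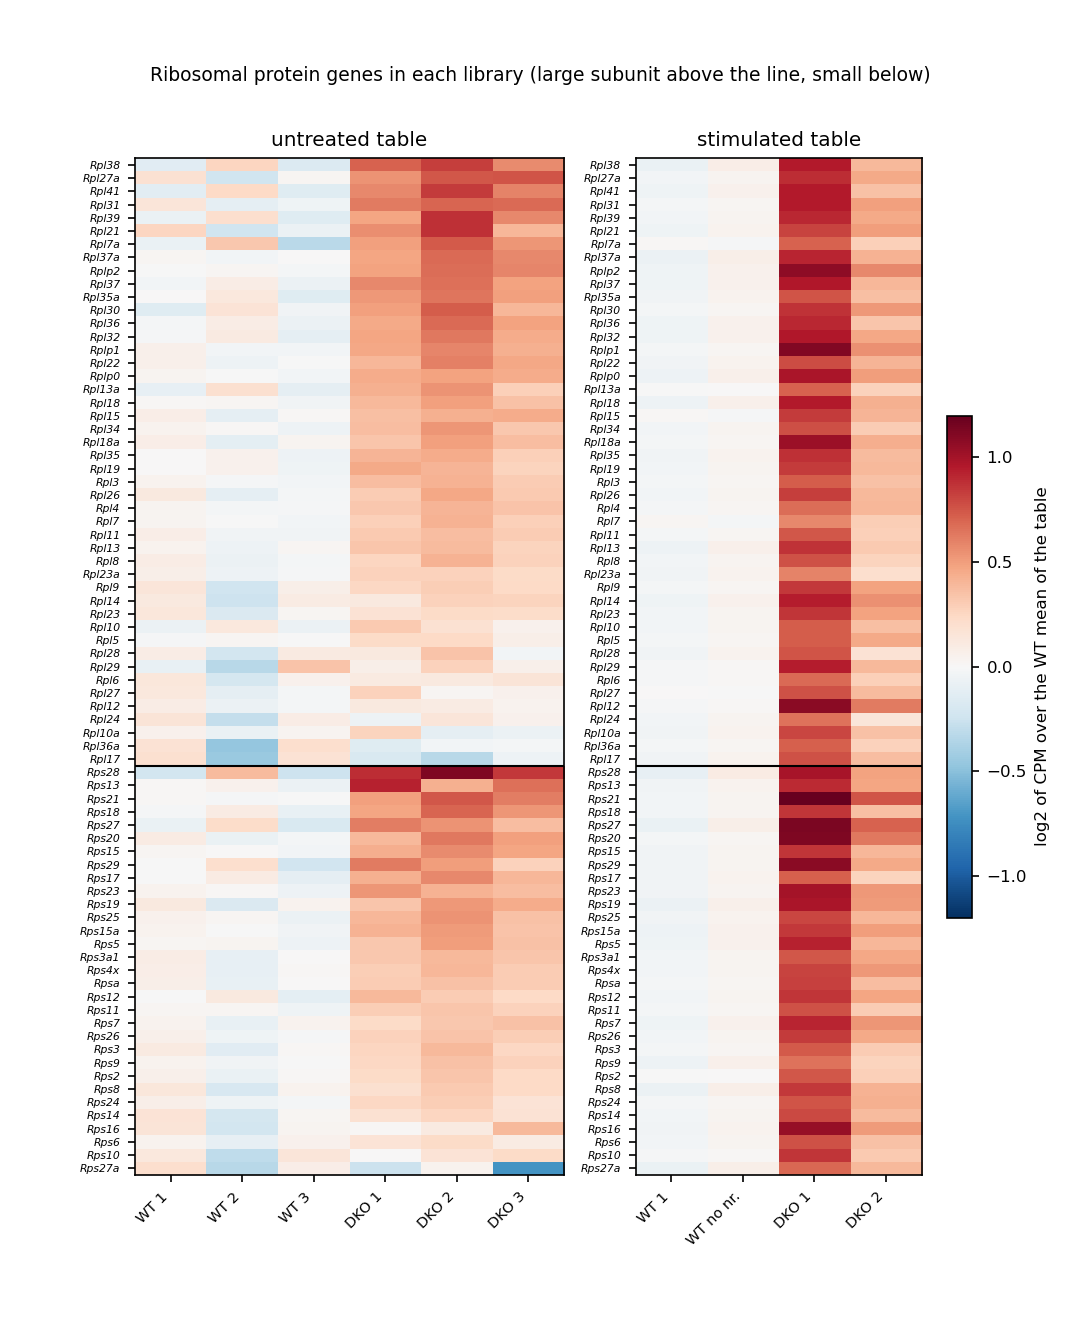
Log2 of each gene's CPM over the mean of the WT libraries of the same table (colour), for each library (x axis) and gene (y axis, large subunit above the black line, each subunit ordered by the untreated change). The genes at the bottom of each block show low values in untreated WT library 2, and stimulated DKO library 1 is darker than DKO library 2 for all 77 genes.

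The stimulated DKO libraries differed from each other in every gene. DKO library 1 read higher than DKO library 2 in 77 of 77 genes, by a median of 1.36 times (range 1.21, Rpl5, to 1.55, Rps29). Against the WT mean the median ratio was 1.79 for DKO library 1 and 1.32 for DKO library 2. The WT libraries of that table lay closer, with ratios of the unnumbered library to library 1 between 0.97 and 1.15. Among untreated DKO libraries, library 2 was the highest in 58 of 77 genes, with a median log2 ratio to the WT mean of 0.42, against 0.33 and 0.31 for libraries 1 and 3.

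Where the reads of a gene and its pseudogenes were placed differed between the tables. Processed copies were sought by sequence in GENCODE M21 transcripts (a transcript of a pseudogene biotype with at least 95% identity over at least 150 bases), which gave 602 copies for 72 of the 77 genes, up to 61 for Rpl21. Of all counts on a gene and its copies together, the genes held 86.2% in untreated WT and 86.1% in untreated DKO libraries, 95.05% and 95.1% in stimulated WT and DKO libraries, and 81.7% in the additional WT libraries. In untreated WT cells 17 genes held under 50% of their own total, the lowest being Rpl17 at 7.4%. In stimulated WT cells this held for 1 gene, Rps10, at 43.0%, and in the additional WT libraries for 19.

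Levels of a gene are given here table by table. Rps27 read 10.1, 12.4 and 9.37 CPM in untreated WT and 16.2, 15.4 and 13.7 in DKO libraries, where 98.5% of the WT library 1 counts of the gene and its copies lay on the gene. It read 211 and 234 CPM in stimulated WT and 487 and 364 in DKO libraries, and 15.6 and 12.5 in the additional WT libraries. In TPM, the highest and lowest genes were Rplp1 and Rps13 (22.1) in untreated WT cells, and Rps3a1 (6808) and Rps10 (168) in stimulated WT cells. How each table treated reads that match several places is not known, so nothing is read from how a gene's level differs between tables. Exonic lengths sum all annotated exons, and TPM values of genes with long rare exons are therefore low.

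The summed share of the pseudogene copies moved with that of the genes. It went from 0.996% of counts in untreated WT to 1.30% in DKO libraries, and from 0.347% to 0.528% in stimulated cells. Of the tested pseudogenes and copies 74 of 203 rose and 0 fell in untreated cells (median 0.56), and 26 of 231 rose and 0 fell in stimulated cells (median 0.71). Counts on a copy and on its gene are not independent, since reads that fit both may be placed on either.

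When the counts of each gene were summed with those of its copies, a choice made after the data were seen, 70 of the 77 genes rose in untreated cells (8.78% of all genes) and 77 had a positive change. Of the 16 genes that had missed the threshold, 10 passed it, and Rpl9, named for this loss after its values were seen, no longer did. Rpl17 changed sign, from -0.12 to 0.50 ± 0.08 (edgeR adjusted p = 0.00403), Rpl36a went from 0.01 to 0.47 ± 0.08 (adjusted p = 0.0064) and Rpl12 from 0.16 to 0.45 ± 0.08 (adjusted p = 0.00629). Rps27a reached 0.17 ± 0.12 (adjusted p = 0.356).

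Of the 8 highest untreated genes 4 came down by over 0.1, Rps13 from 0.76 to 0.46, Rpl27a from 0.76 to 0.43, Rpl31 from 0.74 to 0.49 and Rpl21 from 0.70 to 0.44, all still past the threshold. Rpl38 (0.86), Rpl41 (0.75) and Rpl39 (0.74) were level or higher. Rps29 went from 0.55 to 0.99 ± 0.23 (edgeR adjusted p = 0.0176) and became the highest of the 77, above Rps28 at 0.94 ± 0.20 (adjusted p = 0.0123). The standard deviation of the change over the 77 genes fell from 0.209 to 0.158, and over the 17 genes with under 50% of their total from 0.307 to 0.198. In stimulated cells the same sum left 30 genes called (5.15% of all genes called higher) and the standard deviation at 0.117. The 5 genes without a copy all rose in untreated cells, by 0.28 to 0.75.

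**Figure D4:**
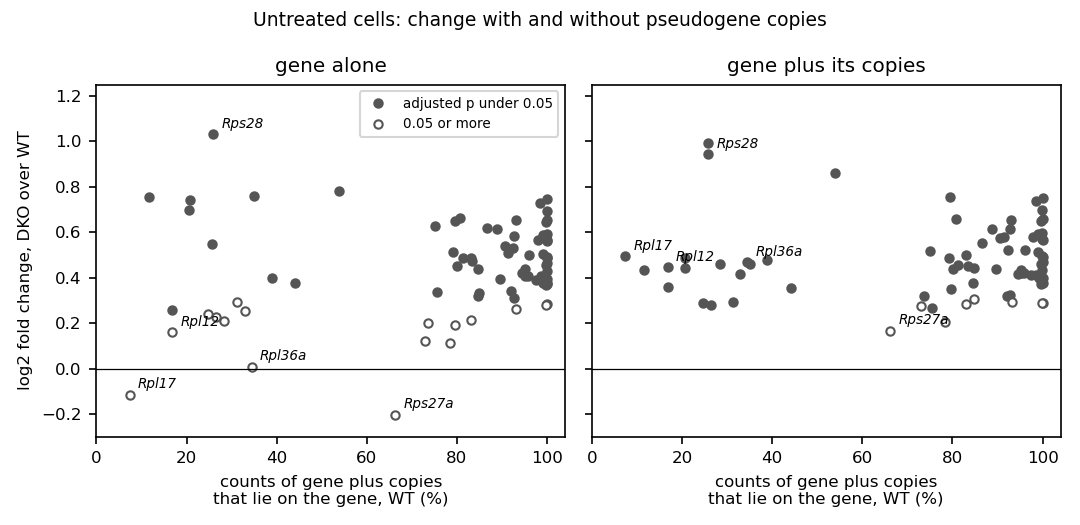
Untreated cells: log2 fold change of DKO over WT (y axis) of each gene alone (left) and summed with its pseudogene copies (right), against the percent of the summed WT counts that lie on the gene (x axis). Open points have an adjusted p of 0.05 or more: 16 genes alone and 7 after summing. Rpl17, Rpl36a and Rpl12 move up into the range of the other genes.

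Genotype by stimulation was tested as the stimulated minus the untreated change, in a joint fit of the 10 libraries. A factor that scales a gene alike in WT and DKO libraries of a table cancels in it, but a difference between tables in which copies hold a gene's reads does not. Of the 77 genes 0 were called (edgeR adjusted p under 0.05, where 0.14% of 15006 tested genes were called, 0.133% higher and 0.00666% lower). DESeq2 called 1 of the 77 and 0.813% of all genes higher, and 18 of the 77 had an unadjusted p under 0.05 in edgeR. The median difference was 0.34, against 0.05 over all genes tested, and 75 of the 77 values were above 0, against 55.3% of all. The exceptions, named after their values were seen, were Rps28 at -0.13 ± 0.29 and Rpl7a at -0.01 ± 0.28. The smallest p was that of Rpl12, whose protein sits at the base of the stalk, at 0.85 ± 0.21 (edgeR adjusted p = 0.159). Rps27a (0.89), Rpl17 (0.84), Rpl10a (0.63) and Rpl14 (0.60) followed, with adjusted p-values of 0.282 to 0.337. Summed with copies, the differences were 0.25 for Rpl17, 0.54 for Rps27a, 0.58 for Rpl12, 0.55 for Rpl10a and 0.59 for Rpl14, with edgeR adjusted p-values of 0.31 to 0.629.

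The size of this difference depends on the stimulated DKO libraries. Without DKO library 1 the median was 0.02 and 46 values were above 0. Without DKO library 2 it was 0.62 and 58 of the 77 were called, in a fit that called 4.28% of all genes higher. A gene called in 1 comparison alone is therefore not shown to respond differently in the other: 29 genes were called in both, 32 in untreated cells alone and 3 (Rpl12, Rpl14 and Rps16) in stimulated cells alone. Of all tested genes 8.81% were called higher untreated and 5.09% stimulated, and how many of them were called in both was not counted.

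Of the ribosomal protein paralogues, near-copies that can replace or add to the usual protein, 6 of 9 had enough counts to be tested. Rps27l, a p53-responsive form, rose by 0.50 ± 0.09 (edgeR adjusted p = 0.00642) and 0.90 ± 0.18 (adjusted p = 0.0186) in untreated and stimulated cells, and Rps27rt by 0.60 ± 0.16 (adjusted p = 0.0318) and 0.98 ± 0.22 (adjusted p = 0.0256). How reads were divided between Rps27rt and Rps27 was not tested. Rps4l, at 3.98 to 11.4 CPM in untreated and 2.13 to 6.85 in stimulated libraries, was 0.82 ± 0.26 (adjusted p = 0.0542) and 1.47 ± 0.30 (adjusted p = 0.0195). Rpl22l1, the paralogue of Rpl22, read 163, 119 and 151 CPM in untreated WT and 135, 190 and 158 in DKO libraries, with overlap, and 159 and 167 against 323 and 259 in stimulated cells. It rose in stimulated cells by 0.94 ± 0.19 (edgeR adjusted p = 0.0195), and its untreated value was 0.23 ± 0.15 (adjusted p = 0.295). The interaction was not called for it. Rpl36al and Rpl7l1 passed in neither table, at 0.19 and 0.10 untreated and 0.48 and 0.28 stimulated. Rpl10l, Rpl3l and Rpl39l had at most 9 counts in a library and were not tested.

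Other translation genes moved less than the ribosomal protein genes by their medians, which no test compared. Of 9 elongation factor genes 5 rose and 1 fell in untreated cells (median 0.31) and 3 rose and 0 fell in stimulated cells (median 0.57). Eef1a1, which brings aminoacyl-tRNA to the ribosome, read 14563, 14797 and 14602 CPM in untreated WT and 20911, 21484 and 20549 in DKO libraries. Eef1a1 rose by 0.59 ± 0.07 (edgeR adjusted p = 0.00206) and in stimulated cells by 0.82 ± 0.21 (adjusted p = 0.0409), and Eef2, the translocase, by 0.42 ± 0.07 and 0.83 ± 0.22. Of 24 other genes with TOP messages 13 rose and 1 fell untreated (median 0.26) and 4 rose and 1 fell stimulated (median 0.45). Vim, an intermediate filament gene, was the one that fell, by 1.02 and 1.28 on the log2 scale.

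Of 30 initiation factor genes 8 rose and 1 fell in untreated cells (median 0.20), and 0 rose and 0 fell in stimulated cells (median 0.39). Eif3f and Eif3e, subunits of the factor that joins messages to the small subunit, rose by 0.40 ± 0.07 and 0.38 ± 0.07, and Eif4g1, the scaffold of cap binding, fell by 0.56 on the log2 scale (edgeR adjusted p = 0.00564). Of 78 mitochondrial ribosomal protein genes 22 rose and 3 fell untreated (median 0.17) and 8 rose and 1 fell stimulated (median 0.39), with Mrpl3 lower in both tables, by -0.80 ± 0.12 and -0.73 ± 0.16. Of 16 tested genes for chaperones and nuclear import of ribosomal proteins 7 rose and 0 fell untreated and 2 rose and 0 fell stimulated.

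Of 19 known regulators of TOP messages and of ribosomal protein transcription, 1 rose and 0 fell in untreated cells (median 0.09) and 3 rose and 0 fell in stimulated cells (median 0.03). Cnbp, which binds TOP messages, rose by 0.39 ± 0.07 (edgeR adjusted p = 0.00905) and 0.79 ± 0.19 (adjusted p = 0.0341). Myc, a transcription factor that drives ribosome production, read 183 and 169 CPM in stimulated WT and 379 and 316 in DKO libraries, a rise of 1.08 ± 0.19 (adjusted p = 0.0122). In untreated cells it read 321, 426 and 342 CPM in WT and 542, 417 and 396 in DKO libraries, with overlap, 0.39 ± 0.14 (adjusted p = 0.0834). Rptor, a subunit of mTOR complex 1, rose by 0.67 ± 0.17 in stimulated cells (adjusted p = 0.0399).

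Short length and high abundance, which ribosomal protein messages share, were set beside the changes. Other genes under 1000 exonic bases had a median log2 change of 0.12 untreated and 0.02 stimulated, and those of 1000 bases or more -0.02 and -0.05. Of other genes under 1000 bases 8.98% rose untreated and 4.19% stimulated. Of the 10 ribosomal protein genes under 1000 bases 10 rose in untreated cells (median 0.56) and 5 in stimulated cells (median 0.78). Other genes with a mean of 500 CPM or more had medians of 0.10 (217 genes) and 0.03 (205 genes). Of these abundant genes 56 rose and 16 fell untreated, and 11 rose and 7 fell stimulated. The shares that rose were 25.8% and 5.37%, against 8.81% and 5.09% of all tested genes. The part of length or abundance in the result was not tested.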

How the data were processed

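Deposited values were raw read counts per gene, 1 column per library in 3 tables. Per the submitters' processing notes, FastQC 0.10.1, cutadapt 1.9.1, HISAT2 2.2.1, HTSeq 0.6.1 and GRCm39 were used, and per the labels' protocols libraries were poly(A) with the NEBNext Ultra kit. For strand setting, annotation release and multiply aligned reads the treatment is not given in the sources used here. Gene coordinates in the additional WT table are of an older build. The 12 deposited FPKM columns were not used.

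Counts were tested within each table with edgeR 4.0.16 in R 4.3.3 (TMM scaling, filterByExpr with a minimum count of 10 and total of 15, quasi-likelihood test, Benjamini-Hochberg adjustment over all tested genes at 0.05). All 77 genes passed the filter. CPM values use plain totals. SE is the absolute log2 change over the square root of F. Summed shares were compared by exact permutation. Copies were found with BLAST 2.17.0. DESeq2 1.42.0, other scalings and filters, leaving out libraries, the replicate block, a sex term and summing with copies were alternatives, the last with the sex term added after the data were seen. Code was tested on simulated data, with changes put into randomly chosen genes. At a simulated log2 change of 0.5 it recovered 27 of 100 changed genes untreated and 4 of 97 stimulated. At a change of 1 it recovered 63 of 99 and 40 of 99. False calls, of genes left as they were, numbered 7 untreated and 11 stimulated. Genes and lists were chosen with earlier results of these data known. The genes named were, per comparison, the 8 highest and 8 lowest, the 5 with the smallest interaction p, the highest and lowest in TPM, the stalk genes, Rpsa, Rpl5, Rpl11, Rpl22, Rps19, Rps27a, Rpl38, all paralogues and up to 3 genes of each other list with the smallest p, with some left out for space.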

Additional observations from a re-analysis of the deposited data

How the results depend on the processing

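Of the 77 genes, 0 were called lower in every alternative run of both comparisons and of the interaction. In untreated cells the count called higher was 61 (8.81% of all genes), and 38 with the replicate block (2.41% of all genes). The numbers did not mark pairs (correlations of same-numbered deviations -0.402, -0.412 and 0.174). No paired analysis was possible for stimulated cells because they share only number 1. The untreated count ranged from 41 (without WT library 3) to 58 (without WT library 1 or 2) when 1 library was left out. It was 42 in a joint fit of 10 libraries. Of all genes 2.63% were called higher without WT library 3, 5.23% and 8.6% without WT libraries 1 and 2, and 5.3% in the joint fit. With plain totals the untreated median was 0.36. Rpl17 reversed, to 0.50 summed with copies by sequence and 0.49 summed with pseudogenes named after it.

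In stimulated cells 32 were called. The count was 7 with plain totals, 75 with DESeq2, 74 without a filter and 77 in the joint fit. Of all genes these fits called 3.06%, 6.87%, 5.25% and 12.8% higher, against 5.09% in the main fit. Leaving out 1 library gave 0 (either WT library) to 77 (DKO library 2), with medians of 0.47 to 1.01. For the interaction DESeq2 called 1 and the unfiltered fit 7, where 0.813% and 1.32% of all genes were called higher. Leaving out 1 library gave medians of 0.02 to 0.62, both ends set by the stimulated DKO libraries. The causes were not tested. The difference in summed share was 1.83 percentage points untreated (1.63 to 1.94 leaving out 1 library) and 3.62 stimulated (2.13 to 5.10). For members named in the text, 407 of 432 untreated and 224 of 312 stimulated values kept direction and side of the threshold. Each gene had at least 181 counts in each untreated and 1818 in each stimulated library. What depth limits was not tested.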
